A study of Mus musculus with 22 samples.

Results

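Utf1, Dppa2, Dppa4, Dppa5a, Lin28a, Lin28b and Sall4 are 7 genes known from pluripotent cells, and they were found by symbol among the 37680 gene IDs of an RNA-seq table of whole mouse embryos. Each of the 7 symbols matched 1 gene ID. The embryos were C57BL/6, were sired by males homozygous for both alleles, and carried 1 copy each of a ROSA26 allele and a transgene, as ROSA26tg/+; Oct4tg/+ (the Oct4 line) or ROSA26tg/+; Nanogtg/+ (the Nanog line). The transgene encodes Oct4 or Nanog and is switched on by doxycycline; the control pools carried the same 2 alleles and received no doxycycline. For the induced pools at embryonic day 7.5 (E7.5) the mother was injected with doxycycline at E4.5 and then drank it, and for those at E9.5 she drank it from E6.5. Each line and stage had 3 control and 3 induced pools, except that the Nanog line had 2 control pools at each stage, which makes 22 pools in 8 groups. At E7.5 each pool was made of 8 to 12 embryos, at E9.5 of 3, and no group received doxycycline without a transgene. The females were 6 to 7 weeks old. The labels do not say in which cells the ROSA26 allele is active or whether each line comes from 1 founder.

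The 7 genes act at different points of the pluripotency network. UTF1 is a chromatin protein of the inner cell mass, the epiblast and germ cells, and its gene is a textbook target of Oct4 and Sox2 through an enhancer beyond its 3′ end. DPPA2 and DPPA4 are small SAP-domain proteins that bind DNA together and keep developmental promoters open to activation; their genes lie side by side. DPPA5 (ESG1) is a KH-domain RNA-binding protein of embryonic stem cells. LIN28A and LIN28B are RNA-binding proteins that block the maturation of let-7 microRNAs, which in turn repress the Lin28 messenger RNAs, and SALL4 is a zinc finger factor that works with Oct4 and Nanog and recruits the NuRD complex.

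Library totals ran from 4.72 M to 42.3 M counts, and a count of 0 allowed a level of up to 0.0756 to 0.597 CPM per library (CPM, counts scaled to library size). The induced Nanog pools at E7.5 stood apart from their controls in library content: gene models under 80 nt summed to 0.575 to 1.13 CPM against 31.3 to 36.8 CPM, and mitochondrial genes took 5.27% to 8.26% of counts against 3.30% to 3.63%. Results of Nanog induction at E7.5 rest on these libraries, and the part of this difference in them was not tested. The E7.5 pools held extraembryonic RNA, as the 11 visceral endoderm markers, such as Afp, Ttr and Apoa1, summed to 1486 to 5586 CPM at E7.5 and to 95.9 to 136 CPM at E9.5. The genes that the transgenes encode read higher with their own induction: Pou5f1, which encodes Oct4, went from 233 ± 18.9 to 603 ± 74.5 CPM (mean ± SD) with Oct4 induction at E7.5 and from 0.822 ± 0.411 to 249 ± 12.7 CPM at E9.5. Nanog went from 20.3 ± 4.10 to 96.1 ± 34.5 CPM with Nanog induction at E7.5, where it missed the test (adjusted p = 0.0752), and from 2.14 ± 0.212 to 328 ± 1.96 CPM at E9.5. Pou5f1 was also higher with Nanog induction at E7.5: it read 236 ± 17.2 CPM in controls and 552 ± 70.2 CPM in induced pools (adjusted p = 0.000955). Nanog read 19.7 ± 1.64 CPM in controls and 30.1 ± 4.99 CPM in induced pools with Oct4 at E7.5 (0.62 ± 0.13, adjusted p = 0.0272), a call lost when any 1 of the 3 controls was left out (adjusted p = 0.0699, 0.104 and 0.134) and with 1 model over all libraries (0.0631). At E7.5 the Oct4 response minus the Nanog response was 0.15 ± 0.17 on the log2 scale for Pou5f1 (adjusted p = 0.856). For Nanog it was -1.63 ± 0.40 (adjusted p = 0.203), so neither gene told the 2 inductions apart by test at E7.5. At E9.5 both did (adjusted p = 4.11e-09 and 1.58e-09). Counts do not separate transgene from endogenous transcripts.

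The genes lie on 6 chromosomes of NCBIM37, the build named for the table. Utf1 is at chr7:147129688-147131011 (plus strand), Dppa4 at chr16:48283848-48294405 and Dppa2 at chr16:48310590-48319836 (both plus strand, 16.2 kb apart with 0 gene models between them), and Dppa5a at chr9:78214859-78215984 (minus strand). Lin28a is at chr4:133559245-133574756, Lin28b at chr10:45096426-45206201 and Sall4 at chr2:168573832-168593443, all on the minus strand. Antisense noncoding models overlap Lin28a and Sall4, with 0.0534% and 0.134% of the counts of those genes, and the sources used here do not give a strand setting. Dppa5b, the close copy of Dppa5a, held 2.31 counts in all libraries together against 1676 for Dppa5a.

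A composite site for Sox2 and Oct4 was searched on both strands as CATTGT, 1 base of any kind and ATGC, from 2000 bases before to 4000 bases after each start. It was present near Utf1 alone of the 7 genes, beyond the gene's end, with its first base 1896 bases from the start, and in 0.818% of 22377 protein-coding genes. The site is printed with its flanks on the strand of the motif, from NCBIM37, with the composite site in capitals.

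Utf1 composite site, chr7:147131575-147131603 (minus strand): atgagccgtCATTGTTATGCtagtgaagt

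The octamer ATGCAAAT, the single Oct4 motif, was found on either strand in the same windows of Utf1, Dppa4, Lin28a and Lin28b, which is 4 of 7 genes against 27.4% of all. The 250 bases before the start were at hand from RefSeq (GRCm38.p6) for Utf1, Lin28a and Lin28b, and neither motif was in them; among 32851 such promoters 1.60% held the octamer and 0.0578% the composite. They are shown because the Lin28 paralogs moved in opposite directions between the stages and Utf1 responded to induction. GC boxes (GGGCGG, either strand) are in capitals; 32.7% of all these promoters hold at least 1.

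Utf1 promoter, chr7:139943606-139943855 (plus strand): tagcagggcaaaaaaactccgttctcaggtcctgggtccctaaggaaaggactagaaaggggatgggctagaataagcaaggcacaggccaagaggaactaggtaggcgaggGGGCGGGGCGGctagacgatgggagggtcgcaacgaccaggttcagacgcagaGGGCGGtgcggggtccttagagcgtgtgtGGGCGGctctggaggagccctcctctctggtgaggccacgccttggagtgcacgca
Lin28a promoter, chr4:134018817-134019066 (minus strand): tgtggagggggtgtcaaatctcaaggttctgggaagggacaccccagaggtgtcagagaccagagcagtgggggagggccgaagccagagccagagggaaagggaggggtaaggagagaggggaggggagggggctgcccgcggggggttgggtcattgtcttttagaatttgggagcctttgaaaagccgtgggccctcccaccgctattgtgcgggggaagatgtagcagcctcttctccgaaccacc
Lin28b promoter, chr10:45470202-45470451 (minus strand): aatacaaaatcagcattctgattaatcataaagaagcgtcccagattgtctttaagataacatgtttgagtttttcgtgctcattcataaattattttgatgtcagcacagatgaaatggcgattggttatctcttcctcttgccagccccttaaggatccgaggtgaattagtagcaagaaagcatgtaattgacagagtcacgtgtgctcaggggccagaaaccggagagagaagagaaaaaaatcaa

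The Utf1 promoter was 61.6% G or C with 14 CG steps and 4 GC boxes. The Lin28a promoter was 61.2% G or C with 7 CG steps and the Lin28b promoter 39.2% with 6, and both had 0 GC boxes. The median over all RefSeq promoters was 52.4% with 6 CG steps.

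Mature let-7 RNAs are shown because they link the Lin28 genes to their best known targets. In RefSeq 9 mouse RNAs of the let-7 family, miR-98 included, share 1 seed (bases 2 to 8, in capitals), and 3 of them are printed. These RNAs were not measured.

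mmu-let-7a-5p: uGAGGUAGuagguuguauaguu
mmu-let-7g-5p: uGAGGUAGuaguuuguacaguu
mmu-miR-98-5p: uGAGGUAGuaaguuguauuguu

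The match to that seed, CTACCTC, was searched on the transcript strand of the longest annotated 3′ UTR of each gene. Lin28a had 2 matches, Lin28b had 4 and Sall4 had 1, while Utf1, Dppa2, Dppa4 and Dppa5a had 0. That is 3 of 7 genes, against 13 of 18 genes known as let-7 targets and 8.80% of 20006 genes with a 3′ UTR. The 3′ UTRs with a match are long (1697 to 4445 nt), and of genes with UTRs of like length 16.0% (Lin28a), 25.4% (Lin28b) and 12.5% (Sall4) had a match. Each match is in capitals with 15 bases before it and 1 after it, in NCBIM37 coordinates. The base after the match is an A at both Lin28a matches, the Sall4 match and the Lin28b match nearest the stop codon.

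Lin28a, chr4:133561104-133561126 (minus strand): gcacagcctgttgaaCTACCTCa
Lin28a, chr4:133560466-133560488 (minus strand): gagatcgccacaaacCTACCTCa
Lin28b, chr10:45100828-45100850 (minus strand): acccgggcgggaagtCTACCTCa
Lin28b, chr10:45098454-45098476 (minus strand): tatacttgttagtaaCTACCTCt
Lin28b, chr10:45098282-45098304 (minus strand): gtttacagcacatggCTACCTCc
Lin28b, chr10:45096866-45096888 (minus strand): aaatgatggcaccgaCTACCTCt
Sall4, chr2:168574440-168574462 (minus strand): agggctttaatttatCTACCTCa

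Utf1 had the clearest response of the 7 genes to Oct4 at E7.5. The Oct4 controls read 30.8, 30.5 and 29.9 CPM and the induced pools 81.5, 80.9 and 78.6 CPM. The groups did not overlap, and within each group the pools lay within 3 CPM of one another. Utf1 rose by 1.41 ± 0.08 on the log2 scale (± SE, 2.65-fold, adjusted p = 0.000171 by edgeR's quasi-likelihood test), and the call held in every fit without 1 library, with an adjusted p of at most 0.00356.

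With Nanog induction at E7.5 the Utf1 levels were 21.4 and 28.7 CPM in the controls and 64.6, 124 and 112 CPM in the induced pools (replicates 1, 3 and 4). All induced pools were above both controls, and replicate 1 was the lowest of them. The fold change was 1.99 ± 0.37 on the log2 scale and missed the test (adjusted p = 0.0534). Without induced replicate 1 it was 2.23 ± 0.15 and passed (adjusted p = 0.000329), as it did with the controls of both lines together (1.82 ± 0.19, adjusted p = 0.000351), with 1 model over all 22 libraries (adjusted p = 1.02e-05) and with DESeq2 (adjusted p = 2.7e-11). Without any other 1 library it was not called. The difference between the Oct4 and Nanog responses was -0.59 ± 0.30 (adjusted p = 0.555), and it passed only without induced Nanog replicate 1 (-0.82 ± 0.16, adjusted p = 0.0421).

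At E9.5 Utf1 was at the edge of detection in all groups. The Oct4 controls held 0, 3 and 3 counts and the induced pools 3, 3 and 0; the Nanog controls held 5 and 5 counts and the induced pools 3, 2 and 1. Summed over pools, the ratio of induced to control was 1.30 in the Oct4 line (6 against 6 counts, exact 95% interval 0.348 to 4.86) and had an interval of 0.350 to 3.56 in the Nanog line (6 against 10 counts). In those induced pools Pou5f1 stood at 249 CPM and Nanog at 328 CPM. The 2.65-fold rise seen with Oct4 at E7.5 lay within the Oct4 interval, so a change of that size was not detectable at this depth, while the 3.96-fold difference seen with Nanog at E7.5 lay above the upper bound of the Nanog interval. These intervals cover counting error and not the spread between pools, and the Nanog difference at E7.5 had itself missed the test.

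The Dppa genes were low at E7.5 and higher in the induced pools of both lines, with more spread than Utf1. With Oct4 induction Dppa2 read 2.85, 3.93 and 3.23 CPM in controls and 3.76, 7.78 and 7.77 CPM in induced pools. Dppa4 read 6.74, 8.07 and 8.41 against 8.98, 18.6 and 14.5 CPM, and Dppa5a read 3.32, 5.05 and 4.79 against 6.14, 9.25 and 7.41 CPM. Induced replicate 1 was the lowest induced pool for each of the 3 genes; for Dppa2 it lay between the controls, while the Dppa4 and Dppa5a groups did not overlap.

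None of the 3 passed the test in the Oct4 line. The log2 fold changes were 0.94 ± 0.28 for Dppa2 (adjusted p = 0.0914), 0.86 ± 0.24 for Dppa4 (adjusted p = 0.0739) and 0.79 ± 0.21 for Dppa5a (adjusted p = 0.0601). Without induced replicate 1 all 3 passed, with adjusted p values of 0.00518, 0.00407 and 0.0329 and log2 fold changes of 1.22, 1.10 and 0.92. Without any other library none of the 3 passed, with adjusted p of up to 0.290, 0.254 and 0.182. With 1 model over all libraries, or without the filter on low counts, the 3 did not all pass. All 3 passed with DESeq2 (0.027, 0.0103 and 0.0135) and with the controls of both lines (0.0251, 0.0434 and 0.0166). With the replicate number as a block the adjusted p values were 0.0299, 0.0199 and 0.0133, but the numbers were not shown to pair the pools.

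With Nanog induction Dppa4 and Dppa5a rose. Dppa4 read 3.07 and 5.90 CPM in controls and 17.8, 12.9 and 16.9 CPM in induced pools, a log2 fold change of 1.78 ± 0.29 (adjusted p = 0.00878) that was not called without control replicate 2 (adjusted p = 0.0771). Dppa5a read 4.16 and 3.78 against 8.99, 11.0 and 13.0 CPM, a change of 1.46 ± 0.25 (adjusted p = 0.0107), not called without control replicate 2 (0.0936) or 3 (0.118). Dppa2, whose protein pairs with DPPA4, read 2.62 and 2.41 against 4.44, 5.24 and 4.25 CPM; the groups did not overlap, but its change of 0.91 ± 0.30 missed the test (adjusted p = 0.0993). Library counts were small here, 17.0 and 20.4 for Dppa2 in the controls. The Oct4 and Nanog responses did not differ by test for Dppa2 (0.02 ± 0.45), Dppa4 (-0.92 ± 0.43) or Dppa5a (-0.68 ± 0.34), with adjusted p of 0.497 to 1, and the SEs leave room for sizeable differences.

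**Figure D1:**
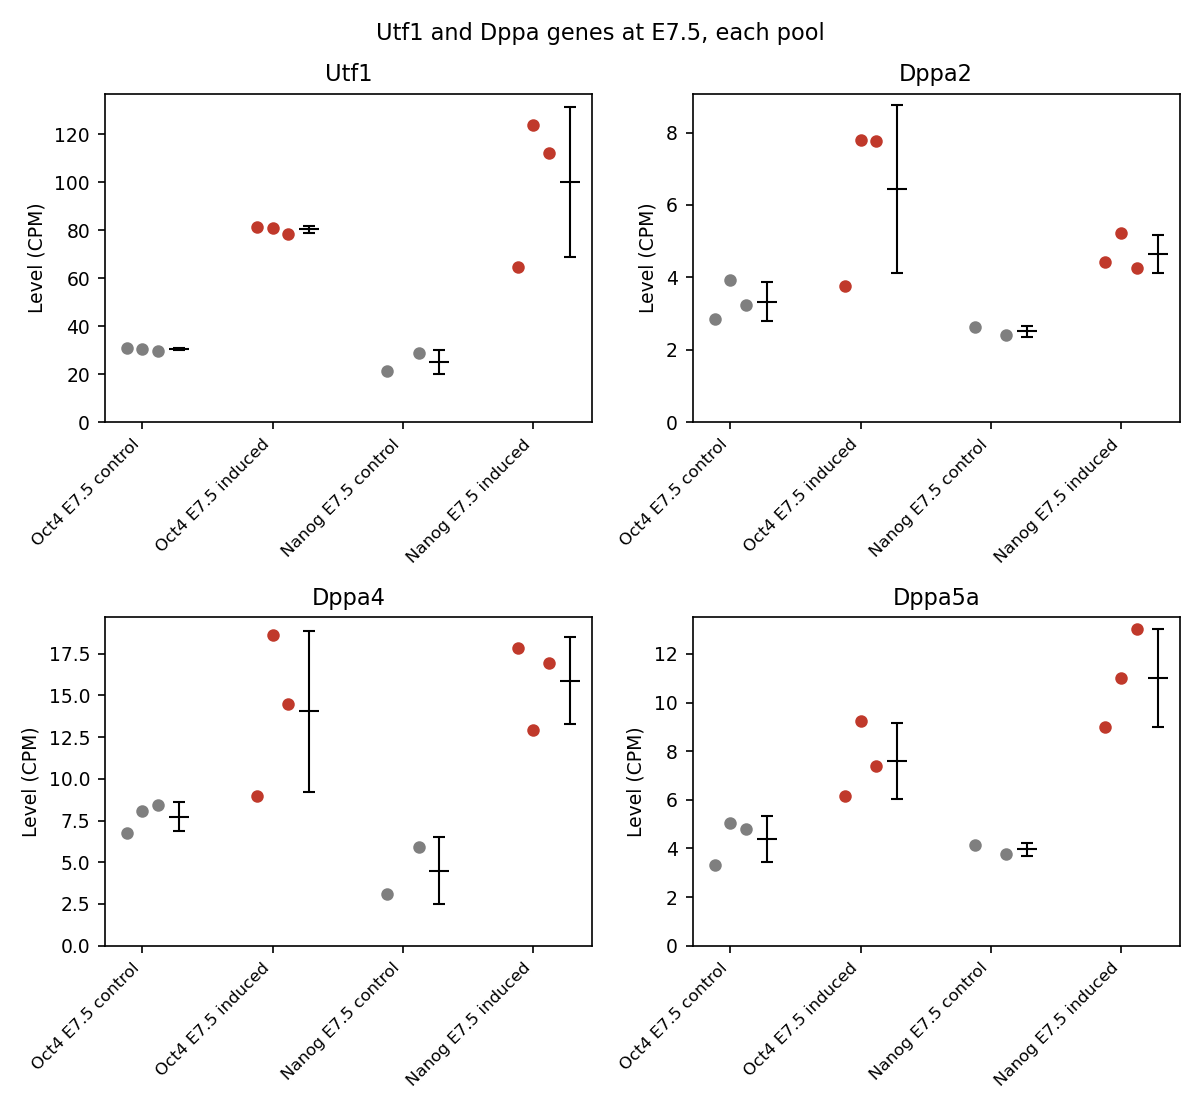
Levels of Utf1, Dppa2, Dppa4 and Dppa5a in CPM (vertical axes, from 0) in each pool at E7.5; grey points are controls, red points induced pools, and the black bars give mean ± SD. Utf1 lies at 29.9 to 30.8 CPM in Oct4 controls and 78.6 to 81.5 CPM in induced pools, while induced replicate 1, the left red point, is the lowest Oct4 induced pool for each Dppa gene.

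At E9.5 the 3 Dppa genes had 0 to 4 counts per library in every group and did not enter the test. Dppa2 was at 0 counts in the 6 induced pools of both lines, and Dppa4 and Dppa5a held 1 to 2 counts summed over the induced pools of a line. In bulk pools such as these, fewer cells of a type and less RNA per cell cannot be told apart.

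Lin28a was the most abundant of the 7 genes per length. At E7.5 it read lower in the induced pools of both lines, where Utf1 read higher, but in neither line did both genes pass the test. With Nanog induction it read 1186 and 1142 CPM in controls and 839, 842 and 681 CPM in induced pools, all of them below the controls. It fell by 0.57 ± 0.11 on the log2 scale (adjusted p = 0.016), a call not made without control replicate 2 (0.175) or 3 (0.131). In the same induced pools 7 of 11 visceral endoderm markers fell, with sums of 1486 to 2256 CPM against 3617 to 4067 CPM in controls, and their part in the Lin28a value was not tested. With Oct4 induction it read 1332, 1069.9 and 1159 against 1014, 989 and 1033 CPM; the groups did not overlap, but the change of -0.22 ± 0.10 missed the test (adjusted p = 0.292).

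At E9.5 Lin28a read higher in the Oct4 induced pools than in their controls. Controls read 306, 342 and 379 CPM and induced pools 489, 451 and 432 CPM, without overlap. The change of 0.43 ± 0.09 lay at the threshold (adjusted p = 0.0511) and passed with RLE scaling (0.0499), without the filter on low counts (1.06e-05), with DESeq2 (0.00239), with 1 model over all libraries (0.0114), with the controls of both lines (0.00237), and without control replicate 1 (0.00411) or 3 (0.0002). Without any other 1 library the change was not called (adjusted p of up to 0.161). With Nanog at E9.5 Lin28a read 337 and 321 against 329, 339.7 and 333 CPM (0.03 ± 0.06, adjusted p = 0.688), and the groups overlapped.

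Lin28b, the paralog on chromosome 10, passed the test at E9.5 and missed it at E7.5. With Oct4 induction at E9.5 it read 215, 216 and 207 CPM in controls and 172, 172 and 169 CPM in induced pools, and it fell by 0.31 ± 0.04 on the log2 scale (adjusted p = 3.15e-05), and passed whichever library was left out (adjusted p of at most 0.00136). With Nanog induction it read 243 and 245 against 200.3, 197 and 207 CPM and fell by 0.27 ± 0.06 (adjusted p = 0.00353). The 2 inductions had their own controls here, and their responses differed by -0.04 ± 0.06 (adjusted p = 0.774). With the controls of both lines the Nanog change was -0.15 ± 0.07 and was not called (adjusted p = 0.273).

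At E7.5 Lin28b had log2 fold changes of -0.01 ± 0.09 with Oct4 (99.5 to 107 CPM in controls, 92.9 to 114 CPM induced) and 0.05 ± 0.10 with Nanog (108 to 109.9 against 101 to 121 CPM), with adjusted p of 0.981 and 0.787. The stage difference of the response was -0.30 ± 0.10 in the Oct4 line (adjusted p = 0.117) and -0.34 ± 0.11 in the Nanog line (adjusted p = 0.0627). Neither passed, so a difference between the stages was not shown for Lin28b. DESeq2 called the Oct4 value (0.041) and 1 model over all libraries the Nanog value (0.0463).

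For Lin28a the response at E9.5 was above that at E7.5 in both lines, by 0.65 ± 0.13 with Oct4 (adjusted p = 0.00548, at most 0.0238 without any 1 library) and by 0.59 ± 0.12 with Nanog (adjusted p = 0.007, at most 0.0495). Of all genes 6.69% and 12.8% were called in these tests (4.84% higher and 1.85% lower with Oct4, 8.02% higher with Nanog). Library content of the controls also differed between the stages, and its part in these values was not tested. At E9.5 the Oct4 response of Lin28a was above the Nanog response by 0.40 ± 0.10 (adjusted p = 0.0127), where 13.5% of genes were called (5.57% higher, 7.92% lower); it was not called without Nanog control replicate 2 (0.0755) or Nanog induced replicate 2 (0.0815) or with 1 model over all libraries (0.133). At E7.5 the difference between the lines was 0.33 ± 0.15 for Lin28a (adjusted p = 0.487), and none of the 7 genes passed that test, which called 0.204% of all genes (0.138% higher, 0.0659% lower). For Lin28b that difference was -0.08 ± 0.14 and for Sall4 0.39 ± 0.19 (adjusted p = 0.922 and 0.515).

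The balance of the paralogs, as the ratio of Lin28a to Lin28b levels per kb of exonic length, was 29.4 ± 2.61 in Oct4 controls and 27.6 ± 1.02 in Nanog controls at E7.5. It was 25.5 ± 2.25 with Oct4 and 17.9 ± 0.488 with Nanog induction. At E9.5 it was 4.17 ± 0.530 and 3.49 ± 0.138 in the controls, 6.91 ± 0.385 with Oct4 and 4.30 ± 0.154 with Nanog. The ratio was lower in induced than in control pools at E7.5 and higher at E9.5, with no overlap in each of the 4 pairs of groups, and it was not tested apart from the 2 genes. With Oct4 at E7.5 the lowest control (27.8) and the highest induced pool (27.5) were close. Of single genes 23.7% (Oct4) and 44.6% (Nanog) did not overlap at E7.5, and 28.3% and 55.0% at E9.5. No such share was computed for ratios.

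Sall4 rose with Oct4 at E9.5. Controls read 68.1, 79.8 and 87.7 CPM and induced pools 111, 120.4 and 102 CPM, without overlap. The log2 fold change was 0.51 ± 0.10 (adjusted p = 0.0254), not called without control replicate 2 (0.0896) or induced replicate 3 (0.102) or 4 (0.0519). With Nanog at E9.5 it read 77.4 and 68.5 against 77.3, 89.0 and 83.8 CPM, with overlap, and the change of 0.21 ± 0.08 missed the test (adjusted p = 0.0572); with a replicate block it was 0.25 ± 0.10 (0.048) and without induced replicate 1 0.25 ± 0.09 (0.0413). Without any other 1 library the Nanog change was not called. The 2 responses differed by 0.30 ± 0.14 (adjusted p = 0.167).

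At E7.5 Sall4 read 428, 356 and 366 CPM in Oct4 controls and 498, 385 and 436 CPM in induced pools (0.20 ± 0.12, adjusted p = 0.46). In the Nanog line it read 303 and 305 against 262, 314 and 221 CPM (-0.20 ± 0.14, adjusted p = 0.42). Both pairs of groups overlapped.

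**Figure D2:**
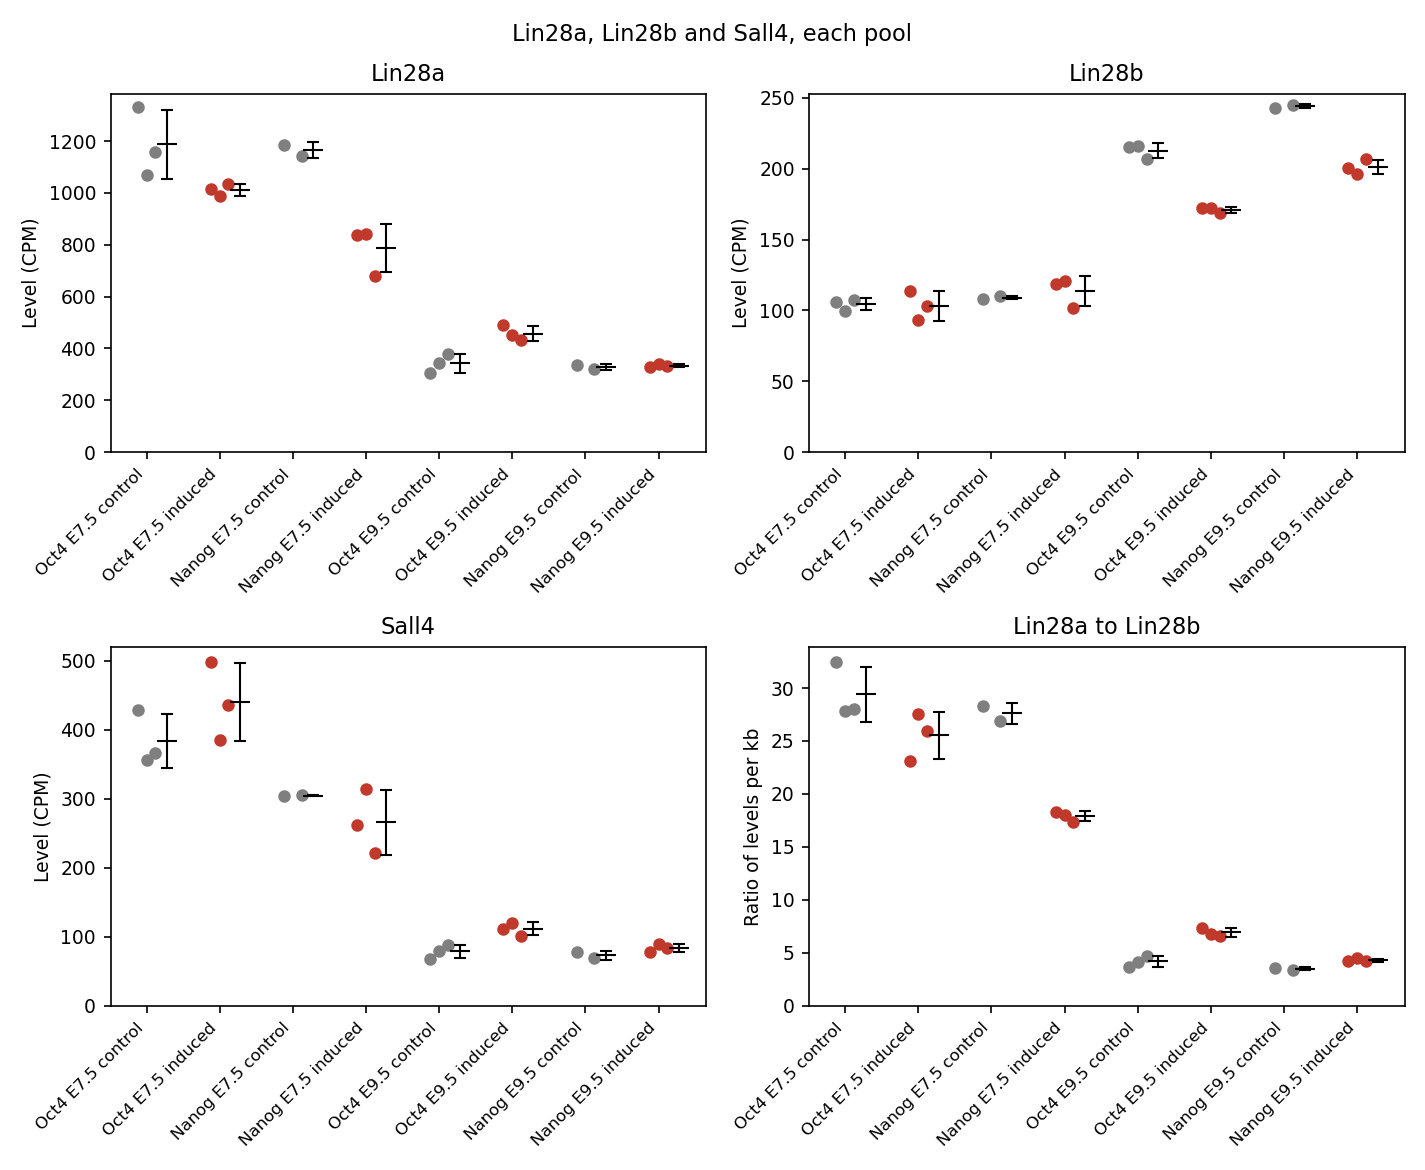
Levels of Lin28a, Lin28b and Sall4 (CPM, axes from 0) and the ratio of Lin28a to Lin28b levels per kb in each pool of the 8 groups; grey points are controls, red points induced pools, and black bars mean ± SD. Lin28b stands at 207 to 216 CPM in Oct4 controls and 169 to 172 CPM in induced pools at E9.5, and the ratio falls from 17.4 or more at E7.5 to 7.35 or less at E9.5.

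Counted over the 7 genes, Oct4 at E7.5 had 1 called higher (Utf1) and 0 lower, where 6.17% of 16071 genes were called (2.25% higher, 3.91% lower). Groups did not overlap for 4 of 7, against 23.7% of all genes. Nanog at E7.5 had 2 higher (Dppa4 and Dppa5a) and 1 lower (Lin28a), where 7.78% of 14118 genes were called (2.96% higher, 4.82% lower), and 5 of 7 did not overlap, against 44.6%. The median log2 fold change of the 7 was 0.79 with Oct4 and 0.91 with Nanog at E7.5, against 0.02 and 0.003 over all genes tested.

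At E9.5 only Lin28a, Lin28b and Sall4 passed the filter on low counts. With Oct4 1 of these 3 was higher (Sall4) and 1 lower (Lin28b), where 9.29% of 13957 genes were called (4.69% higher, 4.61% lower), and with Nanog 1 of 3 was lower (Lin28b), where 28.4% of 13305 genes were called. The groups of all 3 did not overlap with Oct4 (28.3% of all genes) and those of Lin28b did not with Nanog, where it was 55.0% of all genes (26.0% higher, 28.9% lower).

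**Figure D3:**
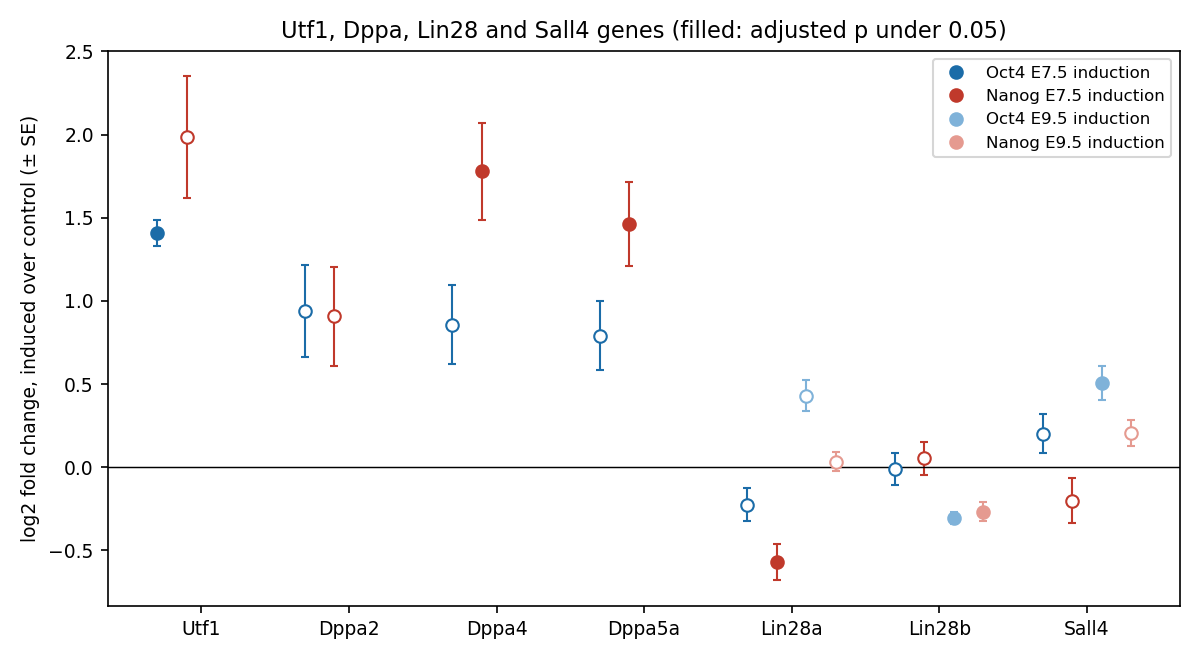
Log2 fold change of induced over control pools (vertical axis, ± SE) of the 7 genes in the 4 inductions; filled points have an adjusted p under 0.05, and the 4 genes with too few counts at E9.5 have no point there. Utf1 and the Dppa genes lie at 0.79 to 1.99 at E7.5, and Lin28b at -0.31 and -0.27 at E9.5.

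Without induction all 7 genes differed between E7.5 and E9.5 in both lines: 6 were lower at E9.5 and Lin28b was higher. This stands where 73.5% of genes were called in the Oct4 controls (37.1% lower, 36.5% higher) and 63.8% in the Nanog controls (32.0% lower, 31.8% higher). The control groups of all 7 genes did not overlap between the stages, against 77.3% of all genes in the Oct4 line (39.4% higher) and 82.9% in the Nanog line (41.9% higher, 41.0% lower). Lin28b rose from 104 ± 4.17 to 213 ± 5.05 CPM in the Oct4 line (1.01 ± 0.05 on the log2 scale, adjusted p = 3.85e-08) and from 109 ± 1.10 to 244 ± 1.40 CPM in the Nanog line (1.16 ± 0.06, adjusted p = 1.41e-09). Lin28a fell from 1187 ± 133 to 342 ± 36.4 CPM and from 1164 ± 31.2 to 329 ± 11.1 CPM, by 1.82 on the log2 scale in each line. Sall4 fell from 384 ± 39.2 to 78.5 ± 9.84 CPM (-2.31 ± 0.10) and from 304 ± 0.841 to 73.0 ± 6.29 CPM (-2.06 ± 0.07).

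The other 4 genes were nearly gone at E9.5, so their decline is given as a ratio of summed counts with an exact 95% interval for counting error. Utf1 was 165 times lower in the Oct4 line (3159 against 6 counts, interval 75.7 to 449.6) and 82.8 times lower in the Nanog line (382 against 10 counts, 44.5 to 174). Dppa5a was 36.6 times lower (14.2 to 135) and 63.9 times lower (16.9 to 540.2), with 4 and 2 counts left. Dppa4 was 256 times lower (45.8 to 10118) in the Oct4 line with 1 count left and 37.9 times lower (14.2 to 143) in the Nanog line with 4. Dppa2 was 109.9 (19.6 to 4354) and 80.2 times lower (13.5 to 3252), with 1 count left in each line. Extraembryonic markers moved the same way: all 11 visceral endoderm markers were called lower at E9.5 in both lines, and the 10 trophoblast markers summed to 310 to 429.7 CPM in E7.5 controls and 25.2 to 43.1 CPM in E9.5 controls. Library content differed too: gene models under 80 nt summed to 29.0 to 51.9 CPM in Oct4 and 31.3 to 36.8 CPM in Nanog controls at E7.5. In E9.5 controls they summed to 0.634 to 1.23 CPM (Oct4) and 1.42 to 1.70 CPM (Nanog). The part of these differences in tissue and library content in the stage differences of the 7 genes was not tested.

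**Figure D4:**
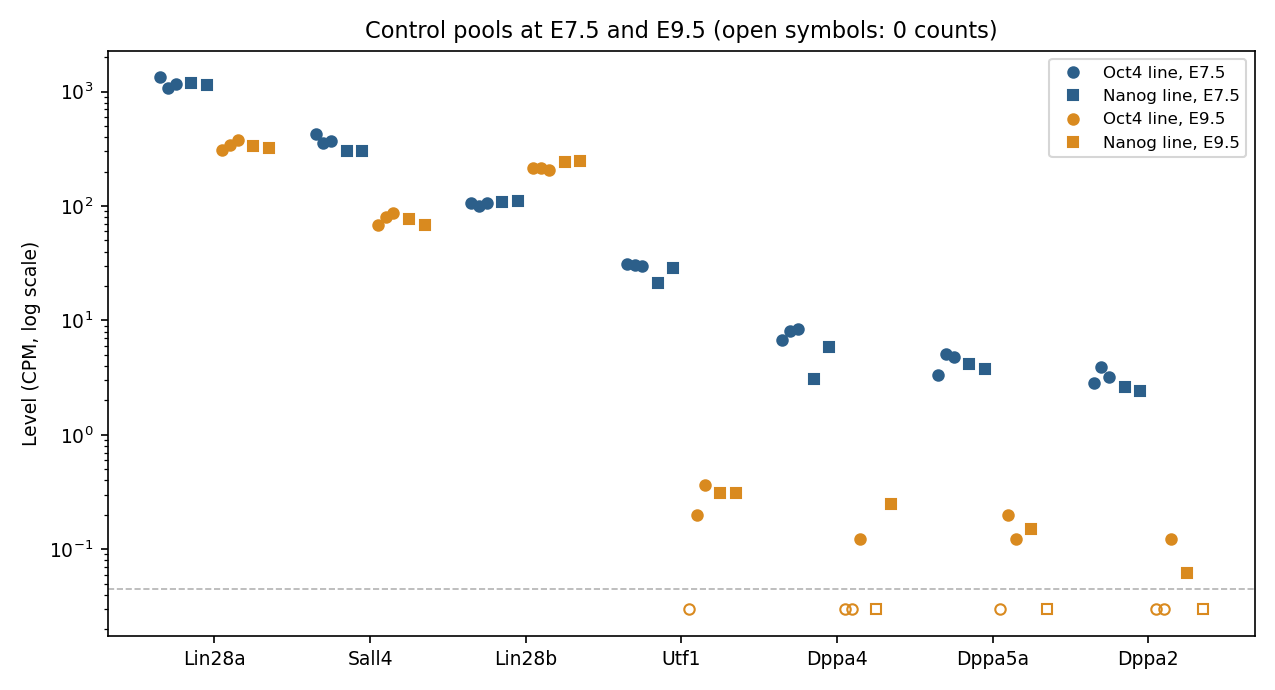
Levels of the 7 genes in each control pool at E7.5 (blue) and E9.5 (orange) in CPM on a log axis; circles are the Oct4 line, squares the Nanog line, and open symbols below the dashed line, drawn at 0.03 CPM, are pools with 0 counts. Lin28b is higher at E9.5 (207 to 245 CPM) than at E7.5 (99.5 to 109.9 CPM), and the other 6 genes are lower.

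The order of the groups differed between genes. Utf1 stood highest in Nanog E7.5 induced pools (100.1 ± 31.3 CPM) and next in Oct4 E7.5 induced pools (80.3 ± 1.53 CPM), whose values overlapped, then in the Oct4 (30.4 ± 0.491 CPM) and Nanog (25.1 ± 5.14 CPM) controls, and the E9.5 groups overlapped one another. Dppa4 and Dppa5a had the same leading order, with 15.9 ± 2.61 and 11.0 ± 2.02 CPM in Nanog induced and 14.0 ± 4.84 and 7.60 ± 1.56 CPM in Oct4 induced pools, and Dppa2 was highest in Oct4 induced pools (6.44 ± 2.32 CPM), which overlapped the Nanog induced pools (4.64 ± 0.523 CPM). Lin28a ran from the overlapping E7.5 controls down to E9.5, with the Nanog E7.5 induced pools (788 ± 92.3 CPM) lowest of that stage and the Oct4 E9.5 induced pools (457 ± 29.4 CPM) highest of theirs. Lin28b ran the other way, with the Nanog E9.5 controls highest (244 ± 1.40 CPM) and the 4 E9.5 groups in separate ranges. Sall4 was highest in Oct4 E7.5 induced pools (439.6 ± 56.5 CPM) and lowest in Nanog E9.5 controls, which overlapped the Oct4 controls.

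Per kb of exonic length Lin28a was the highest of the 7 genes in every group, from 339 ± 38.1 CPM per kb in Oct4 E7.5 controls to 93.9 ± 3.17 in Nanog E9.5 controls. In Oct4 E7.5 controls Sall4 (69.3 ± 7.08 CPM per kb), Utf1 (24.8 ± 0.401), Lin28b (11.5 ± 0.460), Dppa5a (7.09), Dppa4 (5.05 ± 0.575) and Dppa2 (1.71 ± 0.281) followed. Nanog induction at E7.5 placed Utf1 (81.6 ± 25.5 CPM per kb) above Sall4 (48.0 ± 8.45) and Dppa5a (17.8 ± 3.27) above Lin28b (12.5 ± 1.18). At E9.5 Lin28b was above Sall4 in the controls of both lines (23.5 ± 0.557 against 14.2 ± 1.78 CPM per kb in the Oct4 line), and with Oct4 induction Sall4 (20.1 ± 1.70) and Lin28b (18.9 ± 0.219) were close.

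Over the 22 libraries, Utf1, Dppa2, Dppa4 and Dppa5a ran together, with Pearson r of log2(CPM + 0.5) of 0.977 to 0.991 between them, and Lin28a and Sall4 had an r of 0.977, while Lin28b ran against all 6 (-0.926 to -0.959). The points share the contrast of the 2 stages. Among 11133 other genes the closest to Utf1 were Eomes (r = 0.995), Dnmt3b (0.994) and Klf9 (0.992), and Eomes was also the closest to Dppa5a (0.991), followed by Zfp36l3 and Slc35f2. Odc1, Plekhf2 and Stx3 were closest to Dppa2 (0.991 to 0.988) and Epcam, Gls2 and Elf5 to Dppa4 (0.987 to 0.986). Slc2a3 (0.994), Podxl (0.991) and Rin3 (0.983) were closest to Lin28a, Rfx7 (0.987), Tfdp2 and Mtap2 (0.982 each) to Lin28b, and Gatsl2, Slc9a3r1 and Tcea3 (0.986 to 0.985) to Sall4.

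A list of 14 other genes of the pluripotency network was read beside the 7. With Oct4 at E7.5 6 of 13 tested rose and 0 fell, where 2.25% of all genes were called higher and 3.91% lower, and with Nanog 4 of 12 rose and 1 fell, where it was 2.96% and 4.82%. L1td1, an RNA-binding protein that associates with LIN28, rose from 98.1 ± 10.4 to 206 ± 18.4 CPM with Oct4 (1.08 ± 0.10, adjusted p = 0.000616) and from 95.1 ± 10.2 to 222 ± 25.8 CPM with Nanog (1.21 ± 0.12, adjusted p = 0.000907), and both calls held without any 1 library. Tdgf1, the Nodal coreceptor Cripto, rose from 4.06 ± 3.67 to 140.4 ± 38.7 CPM and from 3.38 ± 1.11 to 233 ± 90.9 CPM, and the orphan receptor gene Esrrb rose to 35.6 ± 6.94 and 36.0 ± 4.93 CPM (adjusted p = 0.00299 and 0.00246). Fgf4, Gdf3 and Nr0b1 were also higher with Oct4 (0.97, 2.06 and 1.38 on the log2 scale) and Zfp42 with Nanog (0.86), while Tcfcp2l1 fell with Nanog by 0.74. The calls for Fgf4, Gdf3, Zfp42, Tcfcp2l1 and both for Tdgf1 were lost in 2 to 4 fits without 1 library, and those for Esrrb and Nr0b1 in 0. Sox2, the partner of Oct4 at composite sites, read 41.8 ± 11.2 and 31.8 ± 2.63 CPM with Oct4 and 44.6 ± 4.76 and 49.3 ± 5.59 CPM with Nanog at E7.5 (adjusted p = 0.302 and 0.553).

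At E9.5 L1td1 rose with Oct4 from 1.86 ± 0.201 to 5.58 ± 0.813 CPM (1.59 ± 0.23, adjusted p = 0.000156), the 1 gene of 6 tested that did. With Nanog it read 2.04 ± 0.0855 and 1.45 ± 0.795 CPM (adjusted p = 0.387), and Sox2 fell from 101 ± 11.6 to 72.5 ± 5.96 CPM (-0.47 ± 0.08, adjusted p = 0.001). Primed epiblast markers rose beside Utf1 at E7.5: 8 of 10 rose with each induction, where 2.25% (Oct4) and 2.96% (Nanog) of all genes were called higher. The lowest p were those of Nodal, Foxd3, Zic5 and Pim2 with Oct4 (2.72, 5.81, 1.07 and 1.45 on the log2 scale) and of Fgf5, Pim2, Zic5 and Dnmt3b with Nanog (4.04, 1.81, 1.14 and 1.18). The other members, Sox3 and Sfrp2, read -0.77 ± 0.20 and -0.65 ± 0.20 with Oct4 (adjusted p = 0.0533 and 0.101) and -0.28 ± 0.30 and -0.12 ± 0.20 with Nanog. The summed level of the list went from 887 to 1051 CPM in Oct4 controls to 1749 to 2518 CPM in induced pools and from 969 to 992 to 2217 to 2528 CPM in the Nanog line. Of germ cell markers at E7.5, 0 of 9 tested were called higher and 2 lower with Oct4, where 3.91% of all genes were called lower. With Nanog 0 of 6 tested were higher and 1 lower, where it was 4.82%. Their summed level was 98.6 to 121 CPM in Oct4 controls and 74.3 to 94.0 CPM in induced pools. Germ cells also express Utf1, Dppa and Lin28 genes, and their part in the values of these genes was not tested. Trophoblast markers summed to 178 to 287 CPM in Oct4 induced and 419.6 to 609.5 CPM in Nanog induced pools at E7.5, against 365 to 413 and 309.8 to 429.7 CPM in controls, and in each group at E7.5 no marker of these lists was at 0.

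Among single markers at E7.5, with Oct4 Kit and Ifitm3 (germ cells), Dlx3, Hand1 and Cdx2 (trophoblast) and Lrp2 (visceral endoderm) fell, by 0.52 to 1.24 on the log2 scale, and Prf1 and S100a9 (maternal blood cells) rose. The calls of Dlx3, Hand1 and Cdx2 held whichever library was left out, while those of Kit, Ifitm3, Lrp2, Prf1 and S100a9 did not. With Nanog at E7.5 Kit and Cdx2 fell and Elf5 rose, and of 7 visceral endoderm markers that fell Lrp2, Apoa1, Hnf4a and Ttr had the lowest p. Of these, Lrp2 alone was called in every fit without 1 library. The part of a change in cell make-up in the Utf1 and Dppa values was not tested. At E9.5 Alpl, Hand1, Apoa1, Rbp4, Pim2, Sfrp2 and Dnmt3b rose and Zic5 fell with Oct4, and Hand1, Sox3, Foxd3 and Dnmt3b rose and Lrp2, Otx2 and Zic5 fell with Nanog. Pim2, Sfrp2 and Hand1 with Oct4 were called in every fit without 1 library, each of the other calls at E9.5 was lost in at least 1, and Sox3 with Nanog read -0.017 with controls of both lines.

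Genes repressed by let-7, the pathway that LIN28 proteins hold in check, were lower in part at E7.5. With Oct4 3 of 18 fell and 0 rose, where 3.91% of all genes were called lower: Ccnd2 (-1.04 ± 0.22), Prtg (-0.72 ± 0.13) and Arid3a (-0.71 ± 0.09), with a list median of -0.17. Arid3a passed without any 1 library, while Ccnd2 was lost in 5 and Prtg in 2 of the 6 such fits. With Nanog 8 of 18 fell and 0 rose, where 4.82% of all genes were called lower, with a median of -0.40. Nr6a1 (-0.53 ± 0.08), Prtg (-1.16 ± 0.17), Arid3b (-0.45 ± 0.08) and Hmga2 (-0.56 ± 0.11) had the lowest p, and Ccnd2, Cdk6, Igf2bp2 and Trim71 were the others. Of the 8, Trim71 (81.5 ± 9.03 to 52.1 ± 10.1 CPM) lay closest to the threshold (adjusted p = 0.0498), and every 1 of the 8 was not called in at least 2 of the 5 fits without 1 library. Igf2bp1 (-0.38 ± 0.15) and Igf2bp3 (-0.33 ± 0.10) missed the test. The let-7 RNAs were not measured. The part of the Lin28 genes, of library content or of cell make-up in these target values was not tested.

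At E9.5 the let-7 targets moved in both directions, and the part of the Lin28 genes in this was not tested. With Oct4 4 rose (Nr6a1, Prtg, Arid3b and Hmga1, by 0.21 to 0.49 on the log2 scale) and 4 fell (Ccnd1, Ccnd2, Ccnj and Igf2bp1, by -0.16 to -0.25), with a median of 0.01. Of all genes 4.69% were called higher and 4.61% lower with Oct4 at E9.5. With Nanog it was 15.4% and 13.0%, against 1 of 18 targets in each direction. With Nanog Arid3b rose by 0.24 ± 0.08 and Nras fell by 0.30 ± 0.06; Nras was not called without control replicate 2 (adjusted p = 0.0589), and Arid3b in 3 of the 5 fits without 1 library was not. Hmga2 read 668 ± 23.7 and 636 ± 20.9 CPM with Oct4 and 805 ± 4.38 and 743 ± 24.4 CPM with Nanog, and it did not pass in either line. Between the control stages Hmga2 rose from 361 ± 31.3 to 668 ± 23.7 CPM in the Oct4 line and Igf2bp3 from 186 ± 16.0 to 302 ± 12.7 CPM, while Trim71 fell from 69.9 ± 4.08 to 49.7 ± 4.94 CPM; 10 of 18 targets rose and 6 fell in the Oct4 line and 9 rose and 7 fell in the Nanog line, where 73.5% and 63.8% of all genes were called.

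**Figure D5:**
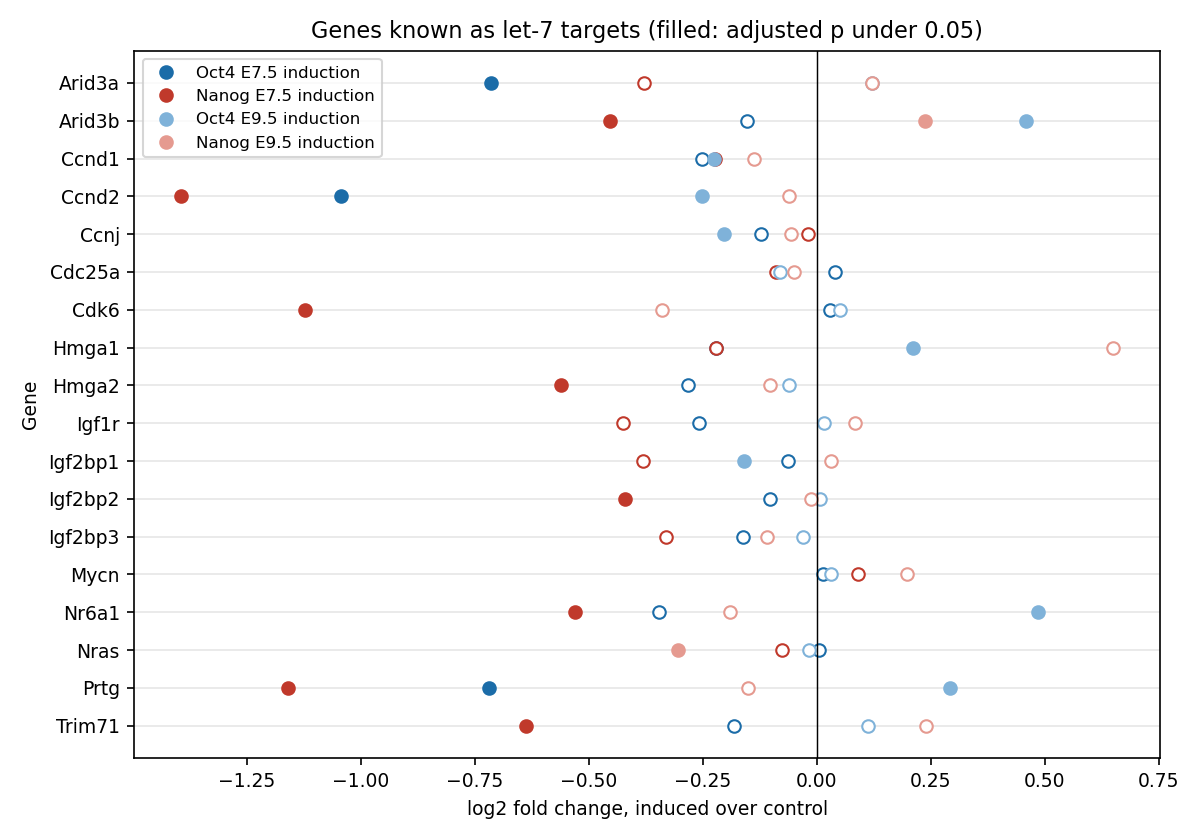
Log2 fold change of induced over control pools (horizontal axis) of the 18 genes known as let-7 targets in the 4 inductions, 1 line per gene; filled points have an adjusted p under 0.05. The filled points at E7.5 (dark blue and dark red) all lie below 0, and those at E9.5 (light) lie on both sides.

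The machinery that LIN28 proteins meet was read as 9 genes of let-7 maturation. They are the uridyltransferases Tut4 and Tut7, the nuclease Dis3l2, Drosha, Dgcr8, Xpo5, Dicer1, Tarbp2 and Ago2. Of these, 0 were called with Oct4 at either stage, where 6.17% (E7.5) and 9.29% (E9.5) of all genes were called. Tut4 fell with Nanog at E7.5 by 0.40 ± 0.10 (adjusted p = 0.047), where 7.78% of all genes were called. This call was lost in 4 of the 5 fits without 1 library. With Nanog at E9.5 Tarbp2 rose by 0.25 ± 0.08 and Tut7 fell by 0.24 ± 0.08, where 28.4% of all genes were called. Between the control stages Tut4, Tut7, Dis3l2 and Dicer1 were higher at E9.5 in both lines, Tut4 by 0.95 ± 0.07 and 0.94 ± 0.06, and Dgcr8 and Tarbp2 were lower. Of all genes 73.5% (Oct4 line) and 63.8% (Nanog line) were called between these stages.

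None of the 3 paralogs of Sall4 was called at E7.5. With Oct4 Sall1, Sall2 and Sall3 had log2 fold changes of 0.06 ± 0.16, -0.08 ± 0.20 and 0.30 ± 0.17, and with Nanog Sall2 read 62.0 ± 4.34 and 86.4 ± 11.4 CPM (0.47 ± 0.12, adjusted p = 0.0509), Sall1 -0.14 ± 0.10 and Sall3 -0.05 ± 0.10. At E9.5 Sall3 rose with Oct4 from 25.5 ± 2.86 to 33.3 ± 2.35 CPM (0.39 ± 0.09, adjusted p = 0.00787; 0.0635 without induced replicate 3), and Sall1 with Nanog from 92.2 ± 8.24 to 112 ± 7.71 CPM (0.30 ± 0.08, adjusted p = 0.00867; 0.151 without control replicate 3). Over the control stages Sall2 rose in the Oct4 line from 58.9 ± 7.34 to 142 ± 5.27 CPM, against the fall of Sall4. Sall3 read 46.3 ± 7.63 and 25.5 ± 2.86 CPM in the same controls. Of the 3 paralogs 1 was called higher and 1 lower in the Oct4 line, where 73.5% of all genes were called. In the Nanog line 1 was higher and 2 lower, where it was 63.8%.

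Of 13 subunits of the NuRD complex 0 were called with either induction at E7.5, where 6.17% (Oct4) and 7.78% (Nanog) of all genes were called. At E9.5 Chd3 fell with Oct4 (-0.27 ± 0.04), and with Nanog Mbd3, Mta1, Chd3 and Gatad2a rose and Hdac2, Rbbp4 and Rbbp7 fell, which is 7 of 13 where 28.4% of all genes were called. The 10 genes of the repressive complex PRC2 had 1 call with Oct4 at E7.5 (Phf19, -1.01 ± 0.20) and 0 with Nanog. At E9.5 Phf19 rose (1.09 ± 0.24) and Aebp2 fell (-0.22 ± 0.05) with Oct4, and Suz12, Ezh2, Eed, Rbbp4 and Rbbp7 fell with Nanog, by 0.17 to 0.43 on the log2 scale. Of all genes 9.29% were called with Oct4 at E9.5, and 13.0% were called lower with Nanog. With the controls of both lines, total calls for Nanog at E9.5 were 138, against 3772 as reported.

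Genes known to depend on DPPA2 and DPPA4 were mostly out of reach. Of 6 matched, the Zscan4 genes Zscan4c, Zscan4d and Zscan4f read under 0.05 CPM in every E7.5 group. With Oct4 at E7.5 2 of the 6 were tested, 1 called lower and 1 not called, with a median log2 fold change of -1.01. With Nanog at E7.5 1 was tested and called lower. Of all genes 3.91% (Oct4) and 4.82% (Nanog) were called lower there. At E9.5 1 was tested in each line, and 15.4% of all genes were called higher with Nanog. Nkx2-5, a heart factor gene that DPPA2 and DPPA4 keep ready for activation in stem cells, fell from 1.61 to 0.293 CPM with Oct4 (-2.50 ± 0.41, adjusted p = 0.00831) and from 2.18 to 0.123 CPM with Nanog (-4.06 ± 0.61, adjusted p = 0.00651; 0.103 without control replicate 2 and 0.08 without 3). At E9.5 it rose with Nanog from 2.56 to 5.43 CPM (1.11, adjusted p = 0.0185, lost in 3 of the 5 fits without 1 library and with controls of both lines, 0.39, adjusted p = 0.632) and read 5.39 and 7.17 CPM with Oct4 (adjusted p = 0.183). The response at E9.5 was above that at E7.5 by 2.90 ± 0.45 with Oct4 (adjusted p = 0.000925) and 5.14 ± 0.71 with Nanog (adjusted p = 0.000489). Relatives of Dppa5a in the KH-domain family stayed low: Ooep read 0.643 and 0.804 CPM with Oct4 and 0.568 and 1.46 CPM with Nanog, and Khdc1a 0.157 and 0.452 CPM with Oct4 (1.51 ± 0.43, adjusted p = 0.0858). None of these relatives was called.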

How the data were processed

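RNA-seq was made from 22 pools of whole embryos. The authors deposited expected counts per gene, estimated with RSEM 1.17 on NCBIM37 per the submitters' processing notes, which also name cutadapt, Picard and limma; strand setting and sequencer of each library are not given in the sources used here. Expected counts were rounded and tested with edgeR 4.0.16 in R 4.3.3 (TMM scaling, filterByExpr, robust quasi-likelihood F test, two-sided), separately for each comparison, with Benjamini-Hochberg adjustment over all genes tested and a call at an adjusted p under 0.05. Levels are CPM with TMM factors over all libraries. Totals of 4.72 M to 42.3 M counts set the precision, and count intervals cover counting error only.

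Gene IDs were matched to GENCODE M1 (37309 of 37680). Named are the 7 genes, Pou5f1 and Nanog, the 3 genes most correlated with each of the 7 (mean of at least 5 CPM in a group), the called genes of each list (the 4 lowest p where more than 5 were called in a direction), the Sall paralogs, and Trim71, Hmga2 and Igf2bp1 to Igf2bp3. Genes and lists were chosen with earlier results of these data known. Where the labels do not say that pools came from separate litters, p-values measure the spread between these pools. Alternatives were RLE scaling, no low-count filter, DESeq2 1.42.0, 1 model over all libraries, controls of both lines, a replicate block and leaving out each library. On simulated counts 79% to 90% of 2-fold changes were recovered. The simulation gave every gene the same spread between pools and changed only genes with enough counts. This share therefore does not carry over to genes with more spread or fewer counts. Tut4, Tut7 and Ago2 were read under their older symbols Zcchc11, Zcchc6 and Eif2c2. Tfap2c, Khdc3, Tcstv1 and Tcstv3 were not analysed here. 1 further gene known as a let-7 target is not reported here.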

Additional observations from a re-analysis of the deposited data

Results flagged for a closer look

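For Lin28a 3 tests of a difference between responses passed. At E9.5 its log2 response to Oct4 was above that to Nanog by 0.40, where 13.5% of all genes were called; this call was lost without Nanog control replicate 2 or Nanog induced replicate 2 (adjusted p = 0.0755 and 0.0815) and with 1 model over all libraries (0.133). Its response at E9.5 was above that at E7.5 by 0.65 in the Oct4 line and by 0.59 in the Nanog line, where 6.69% and 12.8% of all genes were called.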

How the results depend on the processing

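Of the fold changes of the 7 genes, 673 alternative values kept direction and side of the threshold, 35 newly passed, 12 no longer passed and 0 reversed. Pou5f1 and Nanog are not in this tally. Of 56 group levels, 43 moved by less than 1 SD without TMM. Where an alternative moved a value, the cause was not tested.

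Total calls with 1 model over all libraries were 1638 (Oct4 E7.5, 991 as reported), 2737 (Nanog E7.5, 1099), 312 (Oct4 E9.5, 1297), 1958 (Nanog E9.5, 3772), and, for Oct4 minus Nanog, 177 at E7.5 (34) and 229 at E9.5 (1970). Controls of both lines gave 2939 (Nanog E7.5) and 138 (Nanog E9.5), DESeq2 582 (Oct4 E9.5), 2348 (Nanog E9.5) and 244 (Oct4 minus Nanog, E7.5), and no filter 1721 (Nanog E7.5) and 56 (Oct4 minus Nanog, E7.5). Of the 7 genes, 1 was called higher with Oct4 at E7.5, against 2 with 1 model or no filter and 4 with both controls, DESeq2 or the replicate block. With Oct4 at E9.5 it was 1, against 2 with RLE, 1 model, both controls, DESeq2 or no filter. With Nanog at E9.5, 0 were higher (1 with the block) and 1 lower (0 with both controls). Oct4 minus Nanog at E9.5 had 1 higher (0 with 1 model), and the stage difference of the responses 0 lower (1 with DESeq2 for Oct4, 1 with 1 model for Nanog). Sox3 with Nanog at E9.5 reversed with both controls, to -0.017.

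Without 1 library, calls ranged from 438 to 1101 (Oct4 E7.5, 1 to 4 of the 7 genes higher), 161 to 1383 (Nanog E7.5, 0 to 3 higher, 0 to 1 lower), 625 to 1290 (Oct4 E9.5, 0 to 2 higher), 1482 to 3487 (Nanog E9.5, 0 to 1 higher), 16 to 102 and 837 to 2178 (Oct4 minus Nanog at E7.5 and E9.5), and 734 to 1361 and 807 to 2376 (Oct4 and Nanog, E9.5 minus E7.5). Where this left 1 Nanog control, it was assumed to vary like the others.

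With the replicate block 1287 genes were called for Oct4 at E7.5, 3359 for Nanog at E9.5, and 11406 and 9179 between stages in the Oct4 and Nanog controls. Same-numbered Oct4 pools at E7.5 had r of 0.179, 0.209 and 0.0406 and each correlated best with its own number, a hint of pairing from the data and not the design; as 1 of the 3 was under 0.1, pairing was not taken as shown. For Nanog at E7.5 and Oct4 at E9.5 no block could be fitted, as their groups share fewer than 2 numbers. Depth limits Utf1 and the Dppa genes at E9.5.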
